A study of Homo sapiens with 16 samples.

Results

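Peaks from chromatin immunoprecipitation (ChIP) with sequencing, deposited as 10 lists, were examined at 10 genes of the YAP/TEAD axis: the target genes CCN1, CCN2, ANKRD1, AMOTL2 and AJUBA, the coactivator genes YAP1 and WWTR1, the partner genes TEAD1 and TEAD4, and the kinase gene LATS2. The genes were chosen by name, among 19974 protein-coding genes of the RefSeq GRCh38 annotation, and exons and introns were not told apart. A peak was assigned to a gene when its summit lay in the gene body or within 50 kb of it. By that rule 776 of the 399028 peaks in the 10 lists belonged to these genes. The windows ran from 103.2 kb at CCN1 and CCN2 to 370.3 kb at TEAD1, with a median of 150.7 kb against 124.2 kb over all genes.

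The cells were A375, an established human melanoma line, starved of serum for 2 h before treatment. Treated cells then received recombinant human TGFB1, a TGF-beta ligand, at 10 ng/mL for 2 h. Control cells received the carrier solution alone for the same time, which was HCl at 4 mM and BSA at 1 mg/mL and is called vehicle here. The antibodies recognised SMAD2/3, JUNB, ATF3, MITF and acetylated histone H3 (H3K27ac), with 1 library for each antibody and treatment, although the design text speaks of technical triplicates. Libraries fell on 3 experiment dates, SMAD2/3 with H3K27ac, ATF3 with JUNB, and MITF alone, so that each vehicle and TGFB1 pair shared a date while antibodies of different dates cannot be told apart from them. No difference below has a replicate check, and no p-value was computed.

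YAP1 and the product of WWTR1, called TAZ, are coactivators without a DNA-binding domain that reach their targets through TEAD proteins. The Hippo kinases, LATS2 among them, phosphorylate YAP and TAZ and keep them out of the nucleus, and several YAP/TEAD targets, among them LATS2, AMOTL2 and AJUBA, encode regulators of the same pathway. TEAD sites often lie beside AP-1 sites, to which JUNB dimers bind, while SMAD2/3 enter the nucleus and bind DNA with SMAD4 after the TGF-beta receptor is activated. ATF3 is a stress-induced factor that can pair with JUN proteins, MITF directs the pigment cell lineage, and H3K27ac marks active promoters and enhancers.

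The promoters of 4 genes are shown because peaks of several lists lay over TEAD-type letters in them. Each is the 250 bases before a RefSeq start (GRCh38.p14), 5′ to 3′ on the strand of the gene: CCN2 chr6:131951373-131951622 (minus strand), ANKRD1 chr10:90921088-90921337 (minus), AMOTL2 chr3:134374448-134374697 (minus, before the more internal of its starts) and YAP1 chr11:102110197-102110446 (plus). Capitals mark GGAATG or its complement CATTCC (TEAD type) and TGANTCA (AP-1 type, N being any base). They also mark CAGACA (a SMAD box) and CACGTG (an E-box of the kind MITF binds).
CCN2: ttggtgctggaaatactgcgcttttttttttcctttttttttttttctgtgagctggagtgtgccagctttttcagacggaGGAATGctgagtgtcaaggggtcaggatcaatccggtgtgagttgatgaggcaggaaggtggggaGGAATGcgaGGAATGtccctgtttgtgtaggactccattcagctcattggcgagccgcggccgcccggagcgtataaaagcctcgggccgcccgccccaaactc
ANKRD1: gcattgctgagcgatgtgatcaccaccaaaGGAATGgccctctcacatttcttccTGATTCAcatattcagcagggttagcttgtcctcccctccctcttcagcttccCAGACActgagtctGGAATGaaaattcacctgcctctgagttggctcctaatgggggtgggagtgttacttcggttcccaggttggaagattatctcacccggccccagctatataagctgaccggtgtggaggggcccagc
AMOTL2: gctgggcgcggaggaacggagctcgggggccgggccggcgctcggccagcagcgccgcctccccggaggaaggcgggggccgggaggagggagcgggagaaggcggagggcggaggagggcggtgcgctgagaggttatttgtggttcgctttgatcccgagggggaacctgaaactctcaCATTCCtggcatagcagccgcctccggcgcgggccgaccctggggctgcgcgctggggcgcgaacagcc
YAP1: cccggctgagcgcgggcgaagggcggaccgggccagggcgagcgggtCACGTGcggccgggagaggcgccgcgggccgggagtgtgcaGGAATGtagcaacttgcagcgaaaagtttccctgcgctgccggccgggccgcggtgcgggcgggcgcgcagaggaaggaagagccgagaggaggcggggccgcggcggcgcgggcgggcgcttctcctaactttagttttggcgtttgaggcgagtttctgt

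GGAATG, searched on both strands, was present in 5 of the 10 promoters that the RefSeq table holds for 7 of the genes, namely those of CCN2, ANKRD1, AMOTL2, YAP1 and 1 of the AJUBA starts. It was present in 11.9% of 34961 promoters of the same length. CCN2 held it 3 times, beginning 169, 104 and 95 bases before the start, and ANKRD1 held it at 220 and 128 bases. TGANTCA was found in the ANKRD1 promoter alone (6.54% of all promoters), 195 bases before the start, and CAGACA in promoters of ANKRD1, AMOTL2 and AJUBA (13.6%). The ANKRD1 match read TGATTCA, and the 6.54% counts any middle base. CACGTG was found at YAP1 alone (6.35%), CATGTG at a WWTR1 start alone (9.39%), and GTCTAG in none of the 10 (4.91%). A match describes letters in these windows and shows no binding. CCN1, TEAD1 and TEAD4 have no entry in the table.

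**Figure D1:**
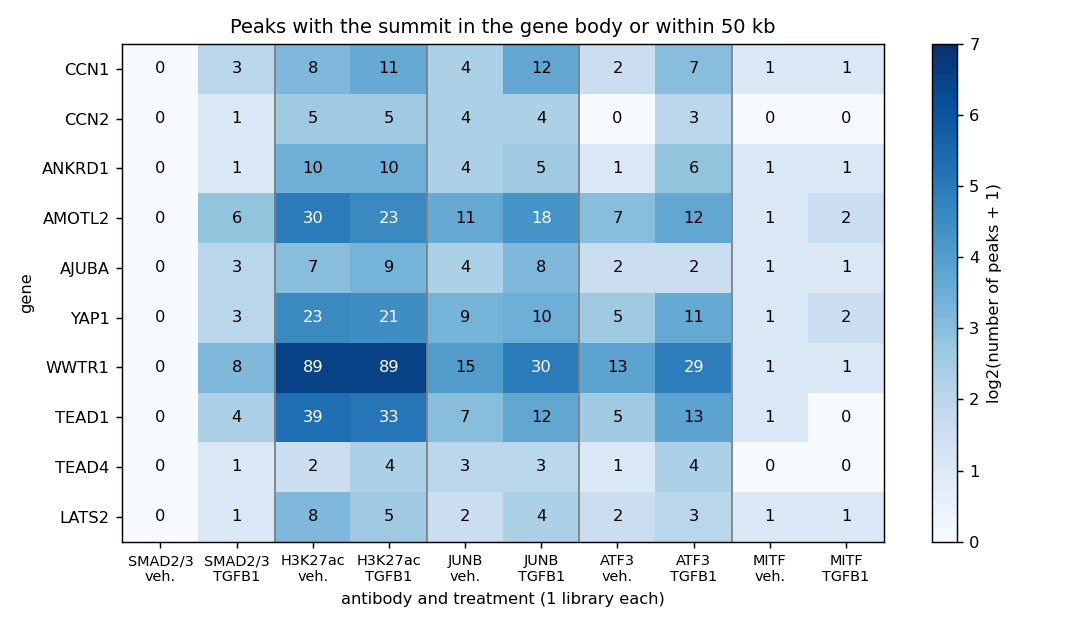
Number of peaks by gene (rows) and by antibody and treatment (columns, 1 library each), counted over the gene body plus 50 kb on each side. Colour gives log2 of the number plus 1. The SMAD2/3 vehicle column is 0 at all 10 genes and the TGFB1 column runs from 1 to 8. WWTR1 has 89 H3K27ac peaks in each treatment.

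SMAD2/3 peaks were listed at these genes after TGFB1 only. The vehicle list had no peak at any of the 10, and the TGFB1 list had 31, with at least 1 at each of the 10 genes. Over all protein-coding genes, 3.85% had a peak in the vehicle list and 47.9% in the TGFB1 list, or 48.4% among the 17073 genes with windows in the same range of length. All 31 peaks overlapped no vehicle peak (100%, 95% Wilson interval 88.97 to 100), against 94.3% of the 11406 peaks of the TGFB1 list. The intervals here and below cover counting error only, and peaks of 1 window are not independent. The density was 1.71 SMAD2/3 peaks per 100 kb of window, against 0.583 pooled over all genes. The vehicle list held 1247 peaks in all, from a library of 9.37 M reads by the recovered depth, and the TGFB1 library held 10.2 M. These depths rest on low-end backgrounds of 1.08 reads in vehicle and 0.69 after TGFB1. They also rest on shortest peaks of 311 and 183 bp, taken as fragment lengths. The median summit pileup was 37 reads in the vehicle list and 17 in the TGFB1 list. Whether both lists were called alike was not tested.

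The number of SMAD2/3 peaks differed from gene to gene. WWTR1 had 8, AMOTL2 had 6, TEAD1 had 4, and CCN1, AJUBA and YAP1 had 3 each. CCN2, ANKRD1, TEAD4 and LATS2 had 1 each. Per 100 kb the order was led by AMOTL2 with 5.0, above 99.1% of all genes, followed by CCN1 with 2.91, AJUBA with 2.69 and WWTR1 with 2.6. TEAD4 with 0.552 and LATS2 with 0.53 stood lowest, at percentiles of 58.4 and 57.9.

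The peaks were of middling strength in their own list. Fold enrichment, the authors' deposited ratio of the summit pileup to the local background, ran from 3.62 to 12.5 with a median of 5.5, against 5.71 over the list. Such values of single peaks describe a peak within its own list, and values of different libraries are set side by side below without reading a change from them. By the deposited −log10 p, 12 of the 31 stood in the upper part of the list above its median, and 2 were among its highest 10%. The summit pileups recovered from these values held 9 to 40 reads, with a median of 16, so that the weakest rested on few reads. Of the summits, 19 lay inside the gene and 12 outside it. The gene itself was the nearest one for 30 of the 31, and the remaining summit, 4.03 kb outside CCN1, lay inside DDAH1.

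SMAD2/3 was found close to the start of most of these genes. A TGFB1 summit lay within 1 kb of a start at 8 of the 10, against 12.2% of all protein-coding genes. Fold enrichment at these summits ran from 3.62 at LATS2 to 6.99 at CCN2. Only those of CCN2 and AMOTL2 (6.97) stood above the list median of 5.71. After TGFB1, H3K27ac lay over a start at all 10 genes but at 55.3% of all genes. Shares among acetylated starts alone were not computed, here or for the other factors below. The 1 kb distance was chosen after the peaks had been seen, and both gene ends stood in for the start of genes without an entry in the promoter table. The vehicle list had none there (0.516% of all genes). The distance was 56 bp upstream at AMOTL2, 104 bp upstream at YAP1, 123 bp upstream at LATS2, 158 bp downstream at CCN2 and 220 bp upstream at AJUBA. It was 206 bp at CCN1 and 413 bp at TEAD4, in either case outside the lower-coordinate end, and 793 bp upstream at WWTR1. TEAD1 and ANKRD1 were the exceptions, with the nearest SMAD2/3 summit 19.6 kb inside TEAD1 and 47.8 kb upstream of ANKRD1.

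At 26 of the 31 SMAD2/3 peaks a JUNB peak of the TGFB1 library overlapped (83.87%, 67.37 to 92.91), against 62.0% of the whole SMAD2/3 list. ATF3 of the TGFB1 library overlapped 19 (61.29%, 43.82 to 76.27), against 45.9%, and each of these 19 also held JUNB (42.3% of the whole list held both). JUNB was already listed in vehicle at 18 of the 31 (48.0% of the whole list), and ATF3 in vehicle at 5 (18.6%). H3K27ac overlapped 27 in vehicle (69.5% of the list) and 27 after TGFB1 (75.7%). MITF overlapped 2 in vehicle (13.0%) and 4 after TGFB1 (11.9%). The 5 peaks with neither JUNB nor ATF3 (34.4% of the list) were a peak inside AMOTL2, a pair inside AJUBA, the peak at the TEAD4 end, and a peak in TEAD1 that overlapped no other list. The intervals for JUNB after TGFB1, for JUNB together with ATF3, and for H3K27ac in vehicle lay above the share of the whole list, and that for neither factor (7.093 to 32.63) lay below it. All other intervals included the share of the whole list. These intervals take the peaks as independent, which peaks of 1 window are not. WWTR1 alone gave 8 of the 31, each with JUNB and ATF3, so the position of an interval is no test.

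**Figure D2:**
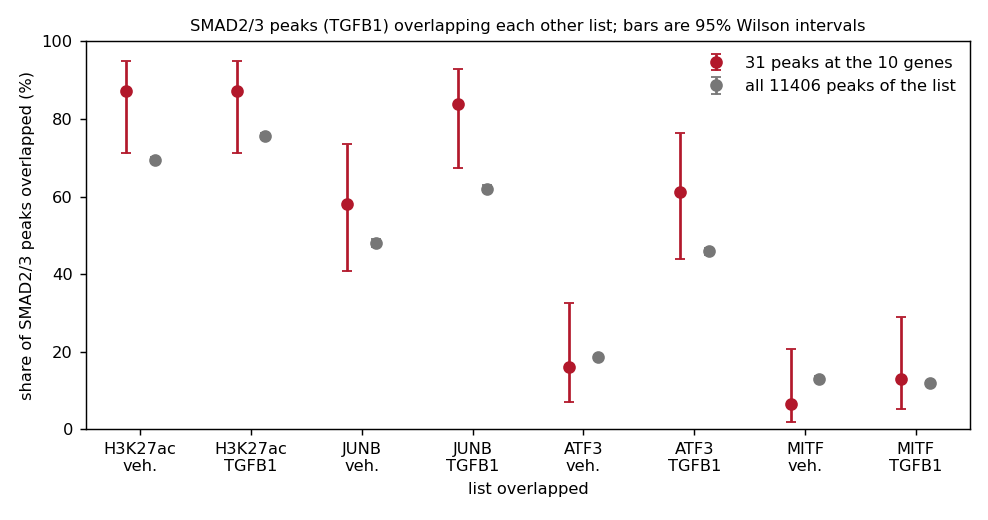
Share of SMAD2/3 peaks of the TGFB1 library (y axis, percent) that overlapped a peak of each other list (x axis) by 1 bp or more, for the 31 peaks at the 10 genes (red) and for all 11406 peaks (grey), with 95% Wilson intervals. JUNB after TGFB1 overlapped 83.87% of the former and 62.05% of the latter.

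CCN1 and CCN2 encode secreted matricellular proteins and are the targets most often used to read YAP/TEAD activity. At CCN1 (chr1:85580761-85583950) the strongest site lay 23.4 kb beyond the higher-coordinate end of the gene (chr1:85606887-85607646), and was held by 5 lists. JUNB was listed there at a fold enrichment of 32.5 in vehicle, rank 135 by −log10 p among 38514 peaks, and at 41.1 after TGFB1, rank 24 among 64407. The pileups were 95 and 207 reads, from libraries of 34.1 and 47.7 M reads. ATF3 was listed at 7.67 in vehicle (10 reads) and 13.8 after TGFB1 (47 reads), and SMAD2/3 after TGFB1 at 12.5 (37 reads). An H3K27ac peak overlapped part of the site in each treatment, at 5.35 in vehicle and 7.89 after TGFB1. In vehicle that H3K27ac peak did not reach the ATF3 peak. The site was thus among the highest JUNB sites of either library, and it is the strongest SMAD2/3 peak by fold enrichment at any of the 10 genes.

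JUNB at CCN1 numbered 4 peaks in vehicle and 12 after TGFB1, of which 9 overlapped no vehicle peak. Of these 9 summits, 5 lay inside the gene or no more than 1.09 kb outside its lower-coordinate end. Their fold enrichments were modest, from 3.04 to 7.05, with 11 to 24 reads each. ATF3 numbered 2 and 7, the latter including 83 bp outside that end (fold enrichment 8.87, 22 reads) and 0.741 kb beyond the higher-coordinate end (13.5, 34 reads). MITF was listed at CCN1 with 7 reads in vehicle and 8 after TGFB1, at summits 366 bp inside and 17 bp outside that end that did not overlap.

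CCN2 (chr6:131948176-131951372) had a compact pattern around its start. The SMAD2/3 peak (fold enrichment 6.99, 17 reads) spanned the start and most of the printed promoter, and a JUNB peak was listed in both treatments over the same promoter. The JUNB summit lay 190 bp upstream in vehicle (5.3, 14 reads) and 149 bp upstream after TGFB1 (8.51, 41 reads). The latter was 17 bases from the GGAATG that begins at 169, 47 from that at 104 and 56 from that at 95. ATF3 had no peak at CCN2 in vehicle and 3 after TGFB1, none nearer than 3538 bp upstream. The strongest JUNB peak of the CCN2 window was 44.7 kb upstream of the gene, at 8.48 in vehicle and 15.2 after TGFB1, outside H3K27ac peaks. MITF was not listed at CCN2 in either treatment.

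ANKRD1 (chr10:90912096-90921087) encodes a nuclear ankyrin repeat protein induced by stretch and by YAP. Its promoter, printed above, held JUNB and ATF3 peaks but no SMAD2/3 peak. JUNB was listed with the summit 260 bp upstream in vehicle at 16.9 (65 reads), and 250 bp upstream after TGFB1 at 29.0 (123 reads, rank 590). ATF3 was listed at 3.89 in vehicle (5 reads) and 28.9 after TGFB1 (95 reads, rank 1740). The JUNB summit after TGFB1 was 58 bases from the TGATTCA and 32 from the nearer GGAATG. Here alone among the 10 genes H3K27ac over the start was listed after TGFB1 and not in vehicle, as a narrow peak of 18 reads (chr10:90920975-90921207, fold enrichment 6.62). The only SMAD2/3 peak of ANKRD1 lay 47.8 kb upstream at 6.23 (18 reads), on a site where JUNB was listed at 19.2 in vehicle and 15.0 after TGFB1. The MITF peak of this window was in the body of RPP30.

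**Figure D3:**
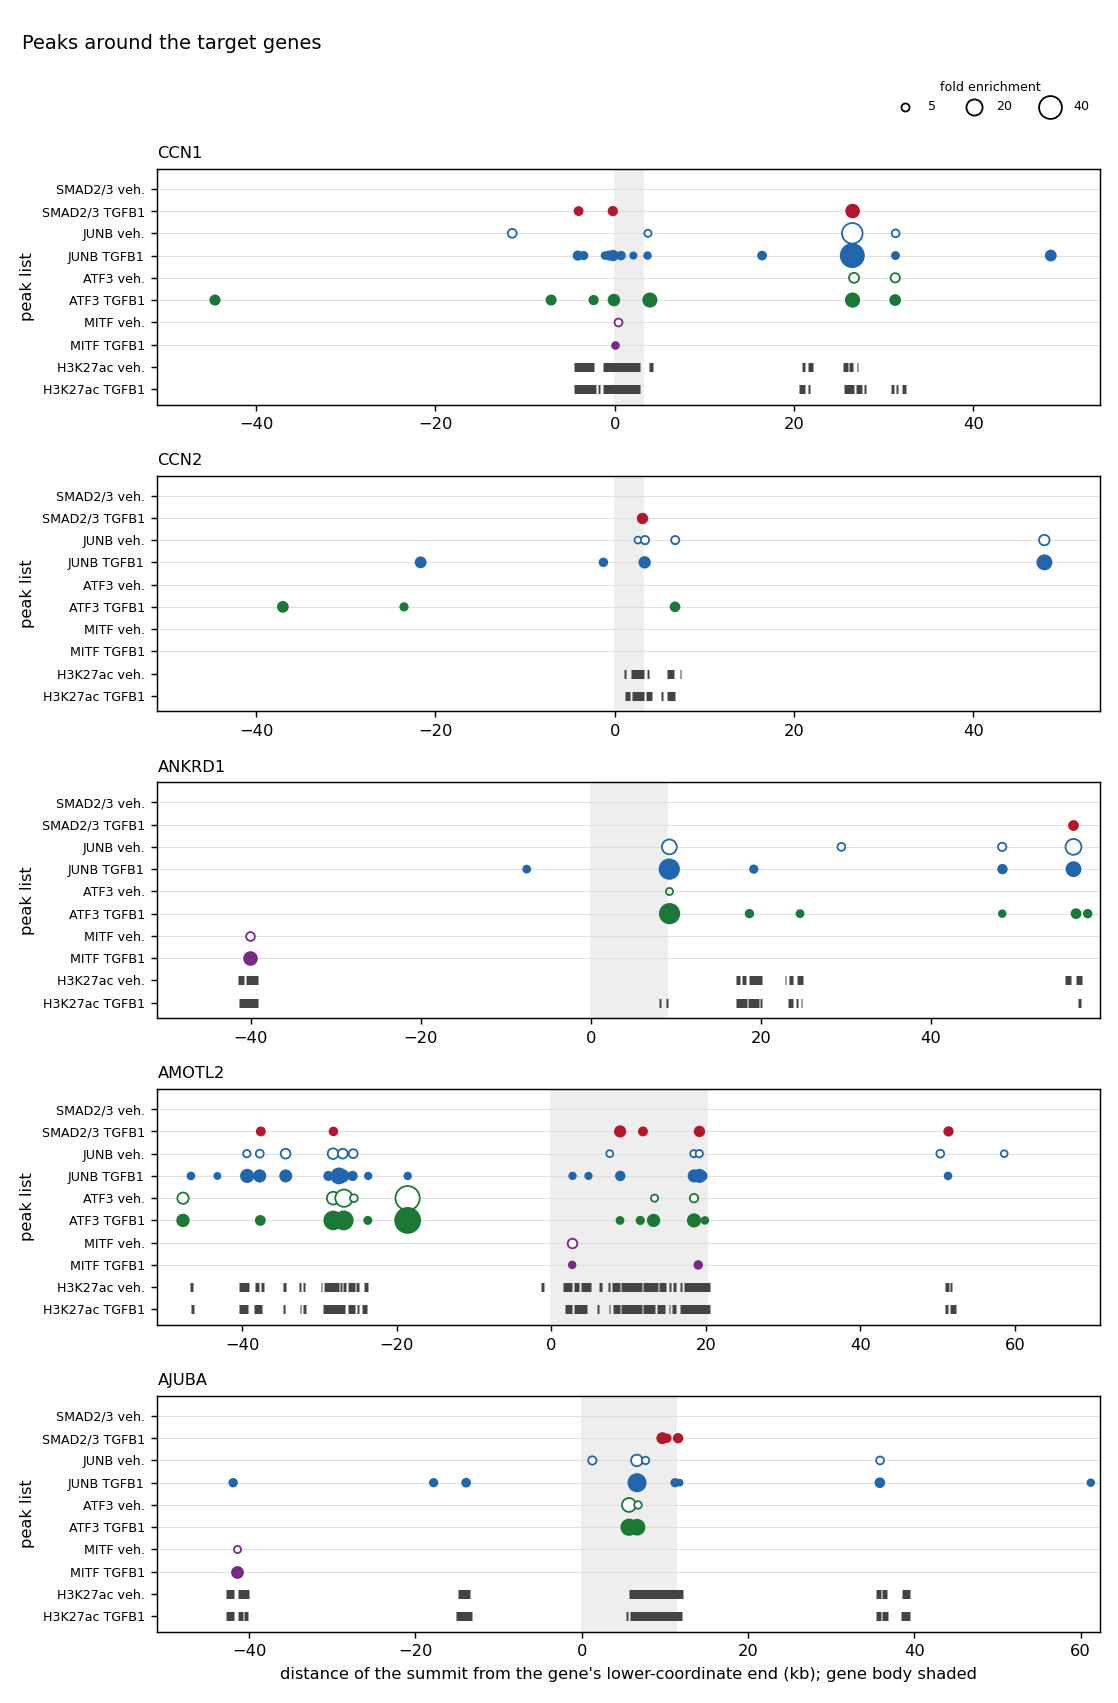
Peaks around CCN1, CCN2, ANKRD1, AMOTL2 and AJUBA, by distance from the gene's lower-coordinate end (x axis, kb, gene body shaded) and by list (rows). Circles are summits of factor peaks, open in vehicle and filled after TGFB1, with the area proportional to fold enrichment, and dark bars are H3K27ac peaks. SMAD2/3 appears only in the TGFB1 rows, and the largest circles are ATF3 at AMOTL2 and JUNB at CCN1.

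AMOTL2 (chr3:134355345-134375417) encodes an angiomotin, a scaffold that binds YAP at cell junctions. It had the densest JUNB binding of the 10 genes, with 15.0 peaks per 100 kb after TGFB1, above 99.9% of all genes, from 11 peaks in vehicle and 18 after TGFB1. Around the internal start, peaks of 6 lists and all 4 factors joined by overlap into a site of 1952 bp, without all sharing a position. The ATF3 peak in vehicle, with the summit 642 bp downstream (5.46, 8 reads), overlapped no SMAD2/3 or MITF peak. The stronger ATF3 summit after TGFB1 lay 645 bp downstream (11.7, 41 reads). The SMAD2/3 summit (6.97, 30 reads) lay 56 bp upstream, and the JUNB summits 33 bp upstream in vehicle (4.14, 20 reads) and 58 bp upstream after TGFB1 (11.5, 67 reads). The CATTCC of the printed promoter was 10 bases from the SMAD2/3 summit and 8 from the JUNB summit after TGFB1. MITF was listed there after TGFB1 with 11 reads. A further cluster lay past the other end of the gene. It held ATF3 at 24.3 and 24.9 after TGFB1, and JUNB at 17.4, at distances of 28.3, 26.9 and 27.5 kb outside the gene. An ATF3 peak 18.6 kb outside the gene had the highest fold enrichment listed for ATF3 at the 10 genes, at 45.0 in vehicle (71 reads, rank 219 of 49563) and 47.7 after TGFB1 (202 reads, rank 313 of 62997), and it overlapped no H3K27ac or SMAD2/3 peak.

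AJUBA (chr14:22971177-22982551) encodes a LIM protein that restrains LATS kinases. Its 3 SMAD2/3 peaks lay 220 bp upstream of the outer start (5.6, 13 reads) and 1124 and 1673 bp downstream of it (4.34 and 7.83), inside an H3K27ac peak of 6434 bp in vehicle and 6357 bp after TGFB1. The strongest JUNB peak lay 972 bp upstream of the inner start in vehicle (10.2, 28 reads) and at the same site after TGFB1 (22.7, 91 reads), and was shared with ATF3. ATF3 was listed at that start, 20 bp upstream in vehicle (14.8, 19 reads) and 39 bp upstream after TGFB1 (18.2, 52 reads). The SMAD2/3 peaks and the ATF3 peaks of AJUBA did not overlap. Its window touches 4 other genes, and the MITF peak 41.5 kb outside AJUBA was nearest to PRMT5.

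Of the coactivator genes, YAP1 had binding of all 4 factors at its start and WWTR1 had the most binding in its body. At YAP1 (chr11:102110447-102233424) the site of 549 bp over the start was held by 6 lists. The SMAD2/3 summit lay 104 bp upstream (4.89, 16 reads), JUNB 109 bp upstream in vehicle (4.89, 15 reads) and 196 bp upstream after TGFB1 (4.07, 20 reads), and ATF3 after TGFB1 217 bp upstream (6.01, 21 reads). MITF was listed 223 bp upstream in vehicle (6.85, 13 reads) and 309 bp upstream after TGFB1 (5.37, 21 reads). The CACGTG of the printed promoter lay 22 bases from the MITF summit in vehicle and 108 from that after TGFB1. The same letters lay 4 bases from the JUNB summit and 16 from the ATF3 summit after TGFB1. By −log10 p the SMAD2/3 and JUNB peaks stood below the medians of their lists, at percentiles of 35.9, 35.3 and 31.1, and the ATF3 and MITF peaks a little above, at 56.2, 54.0 and 52.3. The strongest SMAD2/3 peak of YAP1 was 11.8 kb past the gene (5.77, 13 reads), where JUNB was listed at 10.4 in vehicle and 8.73 after TGFB1. ATF3 numbered 5 peaks in vehicle and 11 after TGFB1. The highest of the latter by fold enrichment lay inside the gene, 90.1 kb from its start (19.6, 61 reads). By −log10 p the highest lay 116 kb from the start, also inside the gene (15.9, 80 reads).

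WWTR1 (chr3:149517235-149724788) carried 89 H3K27ac peaks in each treatment. Their density of 28.9 per 100 kb was the highest of the 10 genes, with AMOTL2 next at 19.2 after TGFB1. They covered 76.7 kb in vehicle and 85.6 kb after TGFB1, 24.9% and 27.8% of the window, against a median of 3.06% and 3.19% over all genes. Of its 8 SMAD2/3 peaks, all were inside the gene and all overlapped JUNB and ATF3 peaks of the TGFB1 library. The strongest by −log10 p at any of the 10 genes was at chr3:149553681-149554439 (fold enrichment 11.8, 40 reads). JUNB numbered 15 peaks in vehicle and 30 after TGFB1, the highest of the latter at 21.5 (114 reads). ATF3 numbered 13 and 29, with a site of 1194 bp in the gene body listed at 20.7 in vehicle (40 reads) and 24.4 after TGFB1 (146 reads), where JUNB and SMAD2/3 also lay. Another 21 ATF3 peaks of WWTR1 overlapped no vehicle peak, the highest at 24.2 (88 reads). A single MITF peak, 94.1 kb from the lower-coordinate end, was present in both treatments (8.17 and 6.76).

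TEAD1 (chr11:12674421-12944737) and TEAD4 (chr12:2959397-3040676) encode the DNA-binding partners. TEAD1, the longest gene of the set, had 4 SMAD2/3 peaks, all inside the gene and none above 6.34 in fold enrichment, with 9 to 12 reads each. JUNB overlapped 3 of them in both treatments. At the lower-coordinate end JUNB was listed after TGFB1 only (9.31, 32 reads), while ATF3 was listed in vehicle (6.66, 8 reads) and after TGFB1 (11.9, 30 reads). Its strongest factor peak was ATF3 197 kb from that end, at 16.3 in vehicle (21 reads) and 38.5 after TGFB1 (99 reads). MITF was listed 280 bp inside the same end in vehicle only (7.3, 10 reads). TEAD4 had the fewest H3K27ac peaks, 2 in vehicle and 4 after TGFB1, and a SMAD2/3 peak 413 bp outside its lower-coordinate end (5.2, 17 reads) with neither JUNB nor ATF3. Near that end, within H3K27ac, JUNB was listed 318 bp inside the gene in vehicle (4.76) and 298 bp inside after TGFB1 (5.17). These JUNB peaks did not overlap the SMAD2/3 peak. The strongest JUNB and ATF3 peaks of TEAD4 met 4.67 kb inside the gene, outside H3K27ac in both treatments. JUNB was listed there at 9.62 in vehicle and 15.6 after TGFB1, and ATF3 at 5.56 (7 reads) and 12.7 (40 reads).

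LATS2 (chr13:20973036-21061586) encodes the kinase that inhibits YAP and TAZ. Its SMAD2/3 peak, 123 bp upstream of the start, was the weakest of the 31 by fold enrichment at 3.62, although with 16 reads. It overlapped an MITF peak present in both treatments, with the summit 1 bp upstream of the start in vehicle (7.02, 17 reads) and 2 bp upstream after TGFB1 (8.61, 28 reads), and a JUNB peak listed after TGFB1 only (5.36, 18 reads). The AP-1 factors were strongest elsewhere. ATF3 inside the gene, 44.3 kb from the lower-coordinate end, was listed at 17.0 in vehicle (22 reads) and 44.7 after TGFB1 (115 reads, rank 947), with JUNB at 7.42 and 7.3. Upstream of the gene by 8.14 kb, ATF3 was listed at 6.27 (8 reads) and 24.3 (62 reads). Neither site held H3K27ac.

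**Figure D4:**
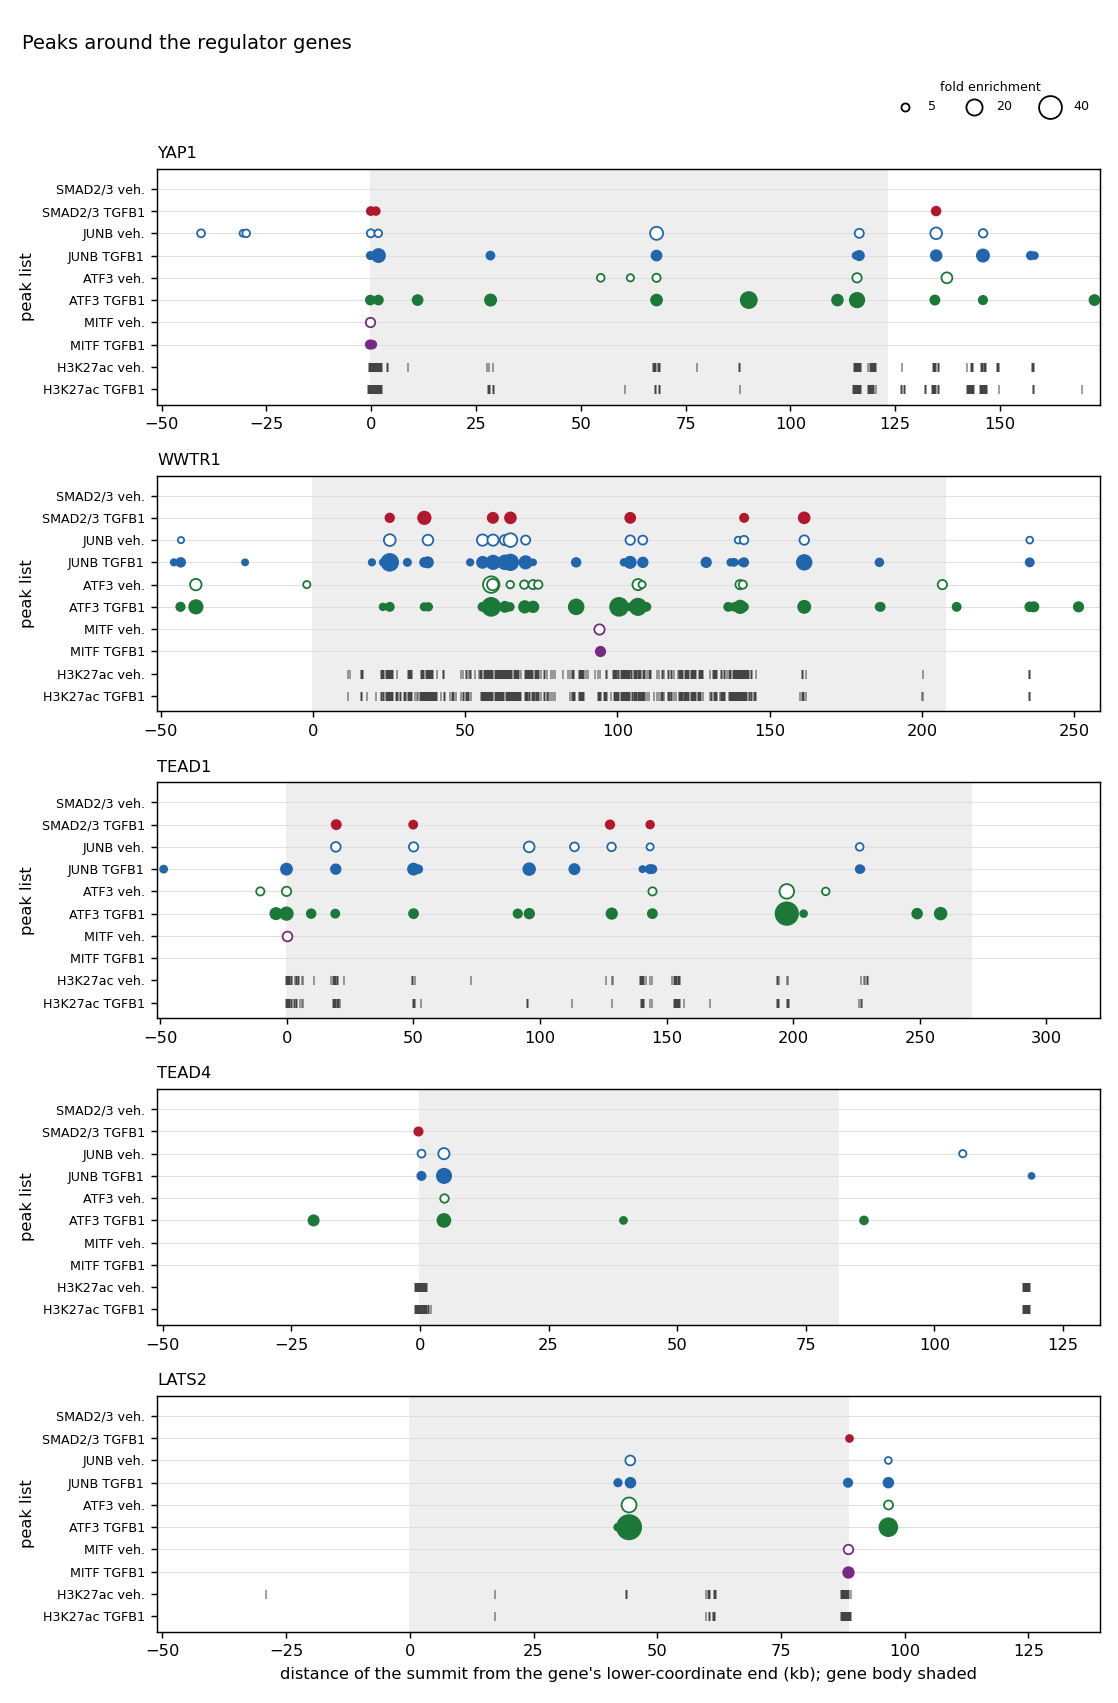
Peaks around YAP1, WWTR1, TEAD1, TEAD4 and LATS2, drawn as for the target genes: distance from the lower-coordinate end (x axis, kb, gene body shaded), lists in rows, open circles for vehicle and filled circles for TGFB1, circle area proportional to fold enrichment, dark bars for H3K27ac. WWTR1 holds 8 SMAD2/3 peaks, all inside the gene, and TEAD4 and LATS2 hold 1 each near a gene end.

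Across the 10 genes JUNB peaks numbered 63 in vehicle and 106 after TGFB1. All 10 genes had at least 1 in each, as did 82.3% and 91.1% of all protein-coding genes. Of the 106 peaks, 59 overlapped no vehicle peak (55.66%, 46.17 to 64.75), near the 58.2% of the whole list. In the other direction, 15 of the 63 were listed in vehicle only (23.81%), against 29.2%. The density per 100 kb was 3.47 and 5.83, against 1.74 and 3.01 pooled over all genes. Peaks of neighbouring genes count in these windows. In the AJUBA window, JUNB summits after TGFB1 also lay inside PRMT5, HAUS4, C14orf93 and PSMB5. After TGFB1, TEAD4 with 1.65 and LATS2 with 2.12 lay below the median gene, 2.74. JUNB lay within 1 kb of a start at 8 genes in vehicle (15.2% of all genes) and at 10 after TGFB1 (31.3%). In vehicle CCN1 counted through a summit 523 bp past its higher-coordinate end, with both gene ends used as above, and had no JUNB summit within 1 kb of the lower-coordinate end.

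ATF3 peaks numbered 38 in vehicle, at 9 of the genes, and 90 after TGFB1, at all 10 (76.9% and 92.1% of all genes). Those that overlapped no vehicle peak were 63 of 90 (70.0%, 59.87 to 78.49), against 77.2% of the whole list. Only 10 of the 38 vehicle peaks were without a TGFB1 partner (26.32%, 14.97 to 42.01), against 71.1%. ATF3 lay within 1 kb of a start at 5 genes in vehicle (9.79%) and 7 after TGFB1 (22.9%). The ATF3 libraries differed in recovered depth by a factor of 4.41, at 6.37 and 28.1 M reads, and depth moved with this comparison. With the TGFB1 pileups scaled to the vehicle background, 30 of the 63 peaks would still have been called (47.6%, against 33.0% of all such peaks). For JUNB the same scaling left 49 of 59 (83.1%, against 88.3%).

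MITF peaks at these genes were few, from lists of 5695 and 5037 peaks, with 8 peaks at 8 genes in vehicle and 9 peaks at 7 genes after TGFB1 (39.9% and 38.4% of all genes). The density was 0.44 and 0.495 per 100 kb, against 0.384 and 0.358 pooled over all genes. CCN2 and TEAD4 had no MITF peak in either treatment. Of the 9, 3 overlapped no vehicle peak (33.33%, 12.06 to 64.58), against 45.6% of the list, and 2 of the 8 were listed in vehicle only, against 52.6%. MITF lay within 1 kb of a start at 4 genes in each treatment (12.3% and 11.0%): CCN1, YAP1 and LATS2 in both, with TEAD1 in vehicle and AMOTL2 after TGFB1.

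H3K27ac was listed at these genes in both treatments, in amounts that differed from gene to gene. A peak lay over a start at 9 genes in vehicle and at all 10 after TGFB1 (53.9% and 55.3% of all genes), ANKRD1 being the exception in vehicle. The genes held 221 peaks in vehicle and 210 after TGFB1, 12.2 and 11.6 per 100 kb against 4.43 and 4.42 pooled over all genes, and all 10 had a peak in each (91.2% and 91.4%). WWTR1 alone gave 89 of these peaks in each treatment. The windows, here and over all genes, also take in peaks of neighbouring genes. By −log10 p the highest H3K27ac peak of the CCN1 window lay inside DDAH1 in both treatments. That of the ANKRD1 window lay inside RPP30. In the AJUBA window, H3K27ac summits also lay inside PRMT5, HAUS4 and C14orf93. After TGFB1, TEAD4 with 2.21 per 100 kb and LATS2 with 2.65 lay below the median of all genes, 3.94. In the share of the window covered, TEAD4 (2.24% in vehicle and 2.37% after TGFB1), LATS2 (2.27% and 1.9%) and, in vehicle, CCN2 (2.68%) lay below the medians of 3.06% and 3.19%. TGFB1-only peaks were 39 of 210 (18.57%, 13.89 to 24.38), against 21.8% of the list, and vehicle-only peaks were 31 of 221 (14.03%), against 16.8%. The covered length after TGFB1 relative to vehicle ran from 0.836 at LATS2 and 0.903 at ANKRD1 to 1.21 at CCN1 and 1.3 at CCN2, with a median of 1.06. Over 18231 genes the median was 1.03, and all 10 values lay between the 5th and 95th percentiles, 0.765 and 1.54.

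None of the 39 TGFB1-only H3K27ac peaks overlapped a SMAD2/3 peak. At this number a count of 0 allows a share of up to 7.69% by a limit of 3 counts, and the share over all such peaks was 3.13%. These 39 peaks were low, at fold enrichments of 2.75 to 6.62. Thus the 27 SMAD2/3 peaks in H3K27ac of the TGFB1 library all lay in peaks that had a vehicle counterpart. The same share over the whole SMAD2/3 list was not computed. In that list 8629 peaks overlapped H3K27ac of the TGFB1 library, while only 553 TGFB1-only H3K27ac peaks held SMAD2/3. The finding is therefore not read as particular to these genes.

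**Figure D5:**
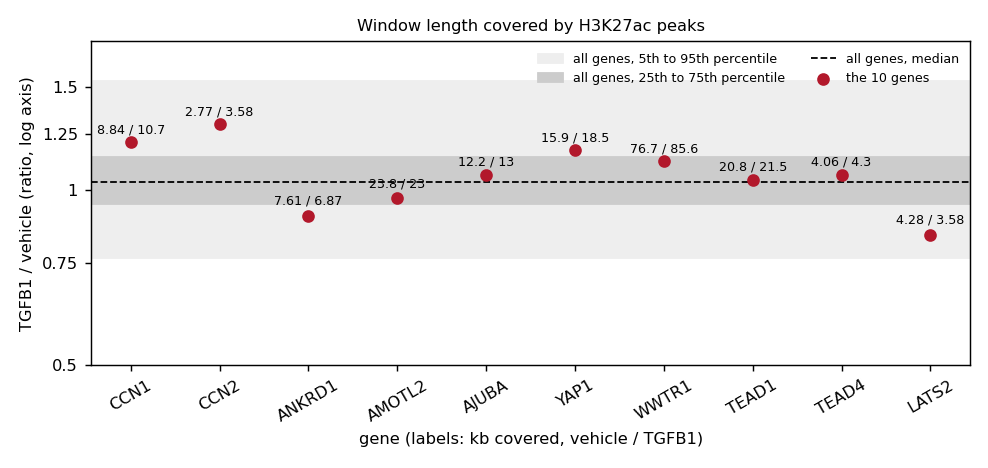
Length covered by H3K27ac peaks after TGFB1 divided by that in vehicle (y axis, log scale) for each gene (x axis), with the covered kb in vehicle and after TGFB1 above each point. The outer band gives the 5th to 95th percentile over 18231 genes, and the inner band gives the interquartile range. CCN2 is highest at 1.3 and LATS2 lowest at 0.836, all within the outer band.

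The wider pathway was read from a pair of gene lists that do not contain the 10 genes. In a list of 28 genes, made up of Hippo core genes, cofactors and the secreted CCN3, CCN4, CCN5 and CCN6, 18 had a SMAD2/3 peak after TGFB1 and 0 in vehicle, against the 47.9% and 3.85% of all genes given above. The strongest by −log10 p were at CCN5 (fold enrichment 18.3, 85 reads), VGLL4, which encodes a competitor of YAP for TEAD (11.0, 55 reads), LIMD1, a LIM protein related to AJUBA (14.8, 38 reads), and FAT1, an atypical cadherin (10.0, 42 reads). None was found at STK3, LATS1, MOB1B, AMOT, TEAD2, VGLL3, WTIP, FAT4, CCN3 or CCN6. In a list of 22 further YAP/TEAD targets, 19 had a peak after TGFB1 and 1 in vehicle, at AXL. Strong peaks of this list were at NUAK1 (45.8, 83 reads), TGFB2 (22.9, 50 reads) and NUAK2 (12.9, 70 reads), each higher in fold enrichment within the same list than any SMAD2/3 peak of the 10 genes. JUNB after TGFB1 was present at 26 of the 28 and 21 of the 22, and ATF3 at 27 and 22, where 91.1% and 92.1% of all genes had a JUNB and an ATF3 peak. The windows of these genes differ in length and some are long, so that the counts describe the lists and nothing particular to them.

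The labelled line was checked by H3K27ac within 1 kb of marker starts, which gave the same result in both treatments. Of 5 melanocyte lineage markers with a start in the table, MITF and PAX3 were acetylated and MLANA, TYR and DCT were not. The 2 keratinocyte markers and the leukocyte marker PTPRC were not acetylated, while the 2 fibroblast markers, PDGFRA and PDGFRB, were.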

How the data were processed

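Peak lists (10) from A375 cells were analysed, 1 for each of 5 antibodies in vehicle and after TGFB1, and the 6 inputs of the series were not analysed here. Reads were aligned with Bowtie to GRCh38 and peaks were called with MACS2 (version 2.0), per the submitters' processing notes. Which control was used and how duplicates were handled is not given in the sources used here. The authors deposited a fold enrichment ratio, a −log10 p and a −log10 q for each peak, as MACS2 wrote them, and a score that was not used. The lowest −log10 q of each list lay near that of a q-value of 0.05.

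Peaks were joined to genes by summit in scipy 1.17.1, numpy 2.4.6 and pandas 2.3.3 under Python 3.11.15. Figures used matplotlib 3.10.9. An overlap of 1 bp or more counted as shared. A TGFB1-only peak shared no base with any vehicle peak of that antibody, and vehicle-only peaks were defined likewise. Summit pileups were solved from fold enrichment and −log10 p with a pseudocount of 1, and 100% were recovered in every list (−log10 p within 0.002). Depths were estimated by taking the smallest background in a list as the genome-wide level, its shortest peak as the fragment length and 2.7 Gb as the genome size. They were 21.5 and 23.2 M reads for H3K27ac and 7.39 and 7.4 M for MITF. Overlaps, window counts and pileups were tested on simulated data.

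With 1 library for each antibody and treatment, comparisons are counts beside the same count over all genes or the whole list. All 10 genes are named. For each gene and list the peak of highest −log10 p was eligible to be described, with every SMAD2/3 peak, the site held by most factor lists, and the 4 members of each gene list with the strongest SMAD2/3 peak, of which 1 is not reported here. The peaks near starts were named after their values were seen. The genes and gene lists were chosen with earlier results of these data known. Promoters come from RefSeq (250 bases before to 50 after each start). No genome sequence was used, so other peaks are given by position only.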

Additional observations from a re-analysis of the deposited data

How the results depend on the processing

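The 10 counts, TGFB1-only peaks and genes with a TGFB1 peak for each antibody, were recomputed in 80 alternatives, of which 63 stayed within 1.5 times the reported count. The 63 include the counting of each summit row, which could not move a count. They also include the scaling to the vehicle library for SMAD2/3 and MITF, where the factor used was 1.0. It was not the measured ratio, since the background after TGFB1 was 0.639 times that in vehicle for SMAD2/3 and 0.974 times for MITF. By recovered depth the ratio for SMAD2/3 was 1.09, so that the 2 measures differed in direction. The share of 63 in 80 is therefore no measure of robustness. With a −log10 q of at least 5, TGFB1-only peaks numbered 36 for JUNB and 1 for MITF. With a fold enrichment of at least 6, they numbered 12 for SMAD2/3, 14 for JUNB and 40 for ATF3, and 4 genes had an MITF peak. With reciprocal overlap of 50%, TGFB1-only H3K27ac peaks numbered 87, and with peaks within 500 bp taken as shared they numbered 23, and those of MITF 1. In the gene body plus 10 kb, TGFB1-only JUNB peaks numbered 39, and in the gene body plus 100 kb those of MITF numbered 5. In the gene body alone they numbered 19 for SMAD2/3, 30 for JUNB and 35 for ATF3, and 6 genes had a SMAD2/3 peak and 3 an MITF peak. With TGFB1 reads scaled to the vehicle library, chosen after seeing the data, TGFB1-only ATF3 peaks numbered 30. Both treatments were filtered at the stricter thresholds, so that a TGFB1 peak whose vehicle partner was removed became TGFB1-only.

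The genes with a SMAD2/3 peak after TGFB1 were 9 of 10 at the stricter −log10 q (all but LATS2; 36.1% of all genes), 7 at the higher fold enrichment (all but YAP1, TEAD4 and LATS2; 25.1%), 9 within 10 kb (all but ANKRD1; 28.2%) and 6 in the gene body alone (18.3%). No interval was listed more than once, so counting each summit gave the same counts. No paired analysis was possible because each antibody and treatment had 1 library, and no library was left out for the same reason. Depth differed most within the ATF3 pair, by a factor of 4.41.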
